A study of Mus musculus with 6 samples.

Results

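Il2rg encodes the common gamma chain of a family of cytokine receptors, and Il2ra, Il2rb, Il4ra, Il7r and Il21r encode chains that assemble with it. These 6 genes were chosen by gene symbol from a table of 32090 genes, in which all 6 were found. Their transcripts were counted in Foxp3-expressing regulatory T (Treg) cells, a CD4 T cell lineage that restrains immune responses, sorted as live CD45+ CD4+ Foxp3+ cells from the colonic lamina propria of untreated C57/BL6 mice. The WT group had the genotype Foxp3YFP-Cre, a Cre recombinase with a yellow fluorescent protein that is made where Foxp3 is expressed. The KO group had the genotype Il23rflflFoxp3YFP-Cre, which adds floxed Il23r, encoding a chain of the receptor for interleukin-23, so that both groups share Cre and the controls carry no floxed alleles. Each group had 3 libraries, each from RNA of cells pooled over at least 5 mice. The sources used here do not give the age or sex of the mice.

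The receptors for the interleukins IL-2, IL-4, IL-7, IL-9, IL-15 and IL-21 share the common gamma chain, encoded by Il2rg, and each adds further chains. Of these, the chain encoded by Il2rb is shared by the IL-2 and IL-15 receptors. The cytoplasmic part of the common gamma chain binds the kinase JAK3, while the partner chains bind JAK1, and together they activate STAT transcription factors, mainly STAT5 for IL-2, IL-7 and IL-15, STAT6 for IL-4 and STAT3 for IL-21. Treg cells are known for high levels of the IL-2 receptor alpha chain (Il2ra, CD25), which lets them capture IL-2, and for low surface levels of the IL-7 receptor alpha chain (Il7r, CD127).

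Library totals of estimated counts lay between 9680503 (WT2) and 20654340 (KO1), and RNA integrity numbers ran from 7.9 to 8.8 except for 5 in WT2. WT1 and KO1 were sorted in batch A, WT2 and WT3 in batch B, KO2 in batch C and KO3 in batch D, so that batch A alone held both groups. Cd4, Ptprc (CD45) and Foxp3, the genes behind the sort, and the T cell gene Cd3e were at 567 CPM or more in every library. CPM is the count divided by the TMM-scaled library total in units of 1000000. The lowest of these values was Foxp3 in WT2, and Foxp3 was at 1126 to 1603 CPM in the other libraries. The targeted gene Il23r was at 19.4 CPM in WT1, 38.3 in WT2 and 13.6 in WT3, against 18.4 in KO1, 4.99 in KO2 and 8.96 in KO3 (edgeR, adjusted p = 0.573). For Il23r, the library labelled KO1 therefore lay inside the WT range, and its label is used below as given. Xist, a transcript of the inactive X chromosome, was at 0 to 0.284 CPM in WT and 1182 (KO1) to 3472 (KO2) CPM in KO, so that KO1 stood with KO for Xist. The summed Y-linked genes were at 264 to 475 CPM in WT and 2.19 (KO2) to 179 (KO1) CPM in KO. The sex of the pooled mice and their genotype thus cannot be told apart, and Il2rg lies on the X chromosome. KO2 and KO3 were the closest pair of libraries, with a chi-square per degree of freedom over genes of 14.6 against 51.6 to 153 in the other pairs, above sampling noise, and were kept as separate libraries.

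The first question was how much of each chain the colonic Treg cells carried. All 6 genes were abundant. Per kilobase of the longest annotated transcript, which is needed to compare different genes, Il2rg was the highest at 409.7 ± 39.1 CPM per kilobase (SD, n = 6 libraries of both groups). Only 0.707% of the 12308 tested genes with a known transcript length were higher. Il2rb, the beta chain of the IL-2 and IL-15 receptors, followed at 254 ± 55.0 and Il2ra at 202 ± 46.8 CPM per kilobase. Il21r, the chain that binds IL-21, was at 149 ± 33.3, Il4ra, the chain that binds IL-4 and is shared with the IL-13 receptor, at 103.5 ± 14.5, and Il7r at 96.5 ± 11.1 CPM per kilobase (SD, n = 6 each). For Il7r, the lowest of the 6, 3.42% of genes were higher. The transcripts of all 3 chains of the high-affinity IL-2 receptor thus stood, by their means, above those of the chains for IL-4, IL-7 and IL-21 on this scale.

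Neighbours in this order were compared within libraries by exact two-sided sign-flip tests, in which 6 libraries cannot give p under 0.0312, adjusted over 5 pairs. The order was set by the means of these same libraries, so the tests give no independent support for it. Il2rg exceeded Il2rb in 6 of 6 libraries by a log2 difference of 0.71 ± 0.30 (SD, exact p = 0.0312, adjusted p = 0.0781). Il2ra exceeded Il21r in 6 of 6 libraries by 0.44 ± 0.30 (exact p = 0.0312, adjusted p = 0.0781). Il21r exceeded Il4ra in 5 of 6 libraries by 0.50 ± 0.34 (exact p = 0.0625, adjusted p = 0.104). The other neighbours did not differ beyond their spread. Il2rb was above Il2ra in 4 of 6 libraries (log2 difference 0.33 ± 0.48, exact adjusted p = 0.234) and Il4ra above Il7r in 3 of 6 (0.10 ± 0.33, exact adjusted p = 0.594).

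The order depends on the length used. The longest transcript of Il2ra has 4412 bases, of which 804 are coding, while that of Il2rg has 1670 bases and the longest coding sequence of Il2rg 1107 bases. Per kilobase of coding length, Il2ra came first at 1109 ± 257 CPM per kilobase, ahead of Il2rb at 658 ± 143 and Il2rg at 618 ± 59.1 (SD, n = 6). This order too was set by the means of the same libraries, so its tests give no independent support for it. Il2ra was above Il2rb in 6 of 6 libraries (log2 difference 0.75 ± 0.48, exact adjusted p = 0.0781). Il2rb was above Il2rg in only 4 of 6 (0.07 ± 0.30, exact adjusted p = 0.750). Il7r at 248 ± 28.7, Il21r at 235 ± 52.5 and Il4ra at 224 ± 31.4 followed, and no neighbours among these last 3 differed beyond their spread (exact adjusted p = 0.750 for both). On both scales the means of the 3 IL-2 receptor chains were above those of the other 3. Which transcripts the cells used is not known from gene counts.

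**Figure D1:**
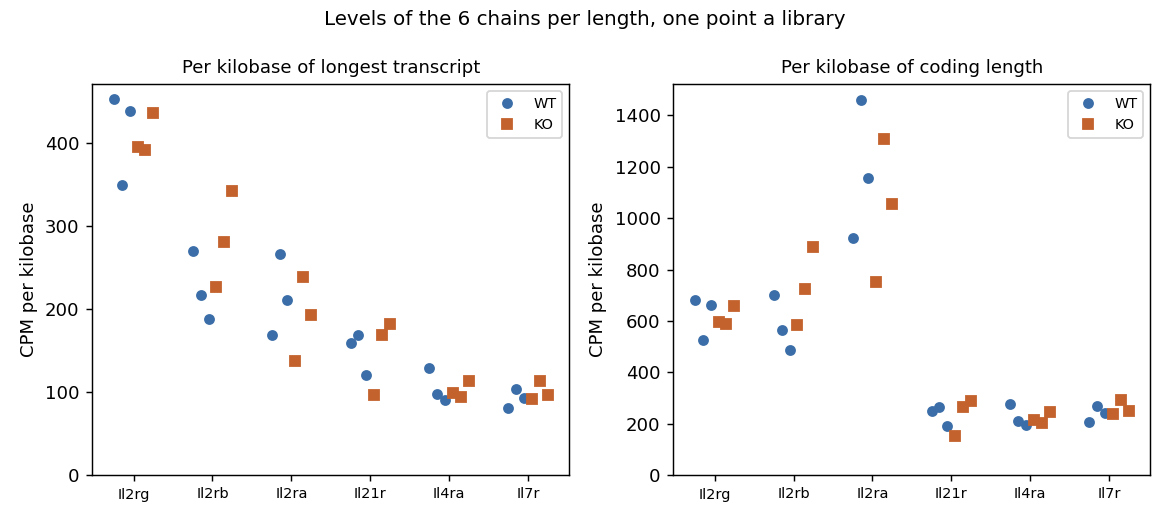
CPM per kilobase (y axis) of the 6 receptor chains (x axis, in the order of the longest-transcript scale), 1 point for each WT (circle) and KO (square) library, per kilobase of the longest transcript (left) and of coding length (right). Il2rg leads on the left at a mean of 409.7 and Il2ra on the right at a mean of 1109 CPM per kilobase, while Il21r, Il4ra and Il7r are the lowest 3 on both.

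The stretch before the transcription start of the 2 genes that led on these scales is shown for orientation, from RefSeq on GRCm38.p6, which held entries for 5 of the 6 genes, Il2rb being the exception. The sources used here do not name the genome build behind the counts. Each sequence is the 250 bases before the start, and capitals mark matches on either strand to motifs of the NF-kB, RUNX and ETS factor families. The Il2ra stretch lies on the plus strand at chr2:11642542-11642791 and the Il2rg stretch on the minus strand at chrX:101268256-101268505.
Il2ra: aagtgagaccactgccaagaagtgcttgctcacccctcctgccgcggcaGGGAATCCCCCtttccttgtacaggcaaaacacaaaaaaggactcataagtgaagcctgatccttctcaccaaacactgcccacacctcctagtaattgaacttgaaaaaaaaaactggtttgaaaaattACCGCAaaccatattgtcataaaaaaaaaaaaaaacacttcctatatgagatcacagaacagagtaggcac
Il2rg: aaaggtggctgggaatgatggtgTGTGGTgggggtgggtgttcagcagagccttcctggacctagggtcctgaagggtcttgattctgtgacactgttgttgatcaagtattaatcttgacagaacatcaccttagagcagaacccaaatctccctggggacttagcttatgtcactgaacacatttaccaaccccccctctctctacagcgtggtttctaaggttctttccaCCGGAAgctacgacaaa

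In Il2ra, the run GGGAATCCCC matches the NF-kB consensus and starts 201 bases before the transcription start, overlapped by a second match that begins 1 base further on. A RUNX motif (TGTGGT or TGCGGT), read on the opposite strand, starts 71 bases before it. Il2rg holds a RUNX motif 227 bases and the ETS core CCGGAA 17 bases before the start. Il7r holds a STAT motif (TTCNNNGAA) 142 bases before its start, and Il21r a RUNX motif that overlaps a FOXO motif (GTAAACA). For these genes the start used differs from the annotated gene start, at 9529876 against 9529941 for Il7r and 125603429 against 125603252 for Il21r. The Il21r matches therefore lie inside the annotated gene. Il4ra has a match to none of these 5 motifs in its window. Among 32851 promoter windows of the same length, 7.25% held the NF-kB consensus, 18.6% a RUNX motif, 12.0% the ETS core, 7.02% the STAT motif and 3.17% the FOXO motif. A match is a string of letters and shows no binding.

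The second question was whether the receptor chains differed between WT and KO. None of the 6 was called, and their groups overlapped in every case. Il2ra was at 743 CPM in WT1, 1173 in WT2 and 929 in WT3, against 604 in KO1, 1052 in KO2 and 849.9 in KO3. It was highest in WT2, the library of low RNA integrity, and lowest in the library labelled KO1, and the groups overlapped. Mean levels were 948 ± 215 CPM for WT and 835 ± 225 CPM for KO (SD, n = 3 each). On the log2 scale KO differed from WT by -0.18 (SE 0.25, edgeR quasi-likelihood test, adjusted p = 0.853, 0.881-fold). The 95% interval of the fold ran from 0.597 to 1.30.

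Il2rb, which with the common gamma chain passes the IL-2 and IL-15 signal into the cell, had the largest difference of the 6. It was at 1131 CPM in WT1, 909.7 in WT2 and 789 in WT3, against 946 in KO1, 1174 in KO2 and 1433 in KO3. KO2 and KO3 were above every WT library, while the library labelled KO1 was below WT1. WT averaged 943 ± 174 and KO 1184 ± 244 CPM (SD, n = 3 each), for a log2 fold change of 0.33 (SE 0.22, edgeR, adjusted p = 0.653) with a 95% interval of the fold from 0.896 to 1.76. Within batch A, Il2rb ran the other way, with a log2 difference of KO1 over WT1 of -0.26 (1 library each). This was not particular to Il2rb: the same difference was -0.30 for Il2ra, -0.20 for Il2rg, -0.38 for Il4ra and -0.72 for Il21r, against 0.18 for Il7r.

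Il2rg was at 755 CPM in WT1, 582 in WT2 and 732 in WT3, against 658 in KO1, 652 in KO2 and 727 in KO3. All 3 KO libraries lay within the WT range. The means were 689.6 ± 94.2 and 679 ± 41.5 CPM (SD, n = 3 each), and the log2 fold change was -0.02 (SE 0.18, edgeR, adjusted p = 0.979). The 95% interval of the fold was 0.746 to 1.30, and the highest and lowest of the 6 libraries differed 1.30-fold, the narrowest range among the 6 genes.

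Il4ra was at 674 CPM in WT1, 511 in WT2 and 472 in WT3, against 518 in KO1, 493 in KO2 and 596 in KO3. WT1 was the highest and WT3 the lowest, so that the KO range lay inside that of WT. The log2 fold change was -0.04 (SE 0.20, edgeR, adjusted p = 0.959), with means of 552 ± 107 and 536 ± 53.8 CPM (SD, n = 3 each) and a 95% interval of the fold from 0.714 to 1.32. For Il4ra, the authors' deposited table gives a log2 fold change of 0.27 (SE 0.27, adjusted p = 0.738), of the opposite sign, and what makes the difference from the value above was not tested.

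Il7r, the chain that binds IL-7 and also takes part in the receptor for TSLP, was at 286 CPM in WT1, 368 in WT2 and 329 in WT3. It was at 324 CPM in KO1, 401 in KO2 and 341 in KO3, of which KO2 alone lay above the WT range. The means were 328 ± 40.9 and 356 ± 40.4 CPM (SD, n = 3 each), with a log2 fold change of 0.12 (SE 0.19, edgeR, adjusted p = 0.878) and a 95% interval of the fold from 0.812 to 1.45.

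Il21r was at 397 CPM in WT1, 420.3 in WT2 and 299 in WT3, against 241 in KO1, 422 in KO2 and 454 in KO3. The library labelled KO1 was the lowest of all 6 and KO3 the highest, so that KO spread on both sides of WT. The group means were 372 ± 64.2 and 373 ± 115.0 CPM (SD, n = 3 each), and the log2 fold change was 0.00083 (SE 0.26, edgeR, adjusted p = 0.999) with a 95% interval of the fold from 0.666 to 1.50.

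**Figure D2:**
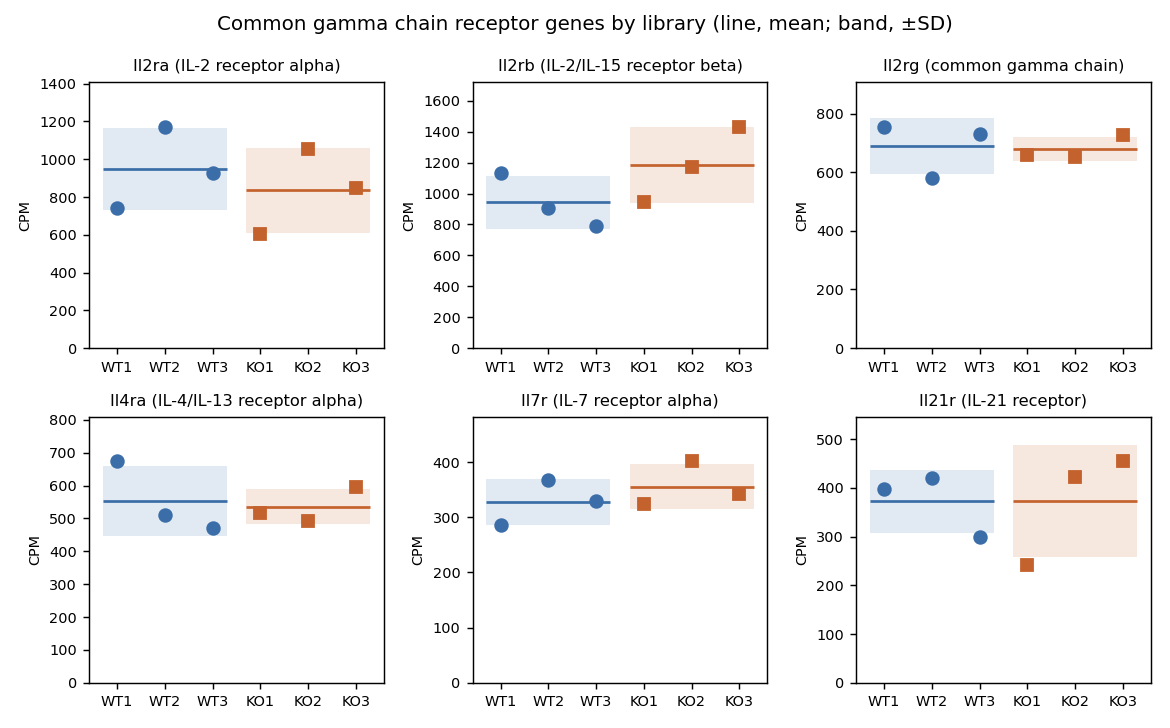
CPM (y axis) of each receptor gene in the 3 WT (circles) and 3 KO (squares) libraries (x axis), with the group mean as a line and 1 SD to either side as a band. The groups overlap in every panel; KO2 and KO3 lie above WT in Il2rb, and KO1 is the lowest library in Il2ra and Il21r.

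Of the 6 chains, 0 rose and 0 fell by edgeR at an adjusted p of 0.05, where 0.0239% of 12557 tested genes were called, and 0 of 6 had an unadjusted p under 0.05, against 9.37% of all genes. DESeq2 called 0 of 6 against 1.89% of its genes, and the authors' deposited table called 0 of 6 against 2.41%. In the authors' deposited table the adjusted p ran from 0.648 for Il2rb to 0.996 for Il21r. The groups did not overlap in 17.7% of tested genes and in 0 of these 6. The median log2 fold change was -0.01 for the 6 chains and -0.04 for all tested genes. The within-group SD of log2 CPM had a median of 0.25 over the 6 chains, 0.24 over the 358 genes of the same range of mean CPM and 0.56 over all tested genes. Among those 358 genes, 31.8% had a log2 fold change larger in size than that of Il2rb. With the library labelled KO1 left out, 0 of 6 were called, and the log2 fold change was 0.46 for Il2rb (SE 0.22, edgeR, adjusted p = 0.517), 0.23 for Il21r (adjusted p = 0.732) and between -0.03 and 0.17 for the other 4. In bulk RNA, fewer cells that carry a receptor and less RNA per cell cannot be told apart.

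Ratios of chains within a library, which do not depend on how libraries are scaled, were compared next. The count of Il2ra over that of Il2rg was 0.984, 2.02 and 1.27 in WT1, WT2 and WT3 and 0.918, 1.61 and 1.17 in KO1, KO2 and KO3, and thus varied 2.20-fold over the libraries with each group covering most of that range. The ratio of Il2rb to Il2rg was 1.50, 1.56 and 1.08 in WT and 1.44, 1.80 and 1.97 in KO, in the same order, with KO2 and KO3 above WT and KO1 inside the WT range. The ratio of Il4ra to Il2rg was the steadiest, between 0.645 in WT3 and 0.892 in WT1, with the 3 KO libraries between 0.757 and 0.821. Il2ra over Il7r, the pair of chains by which Treg cells are often told from other CD4 T cells, was 2.60, 3.19 and 2.82 in WT and 1.86, 2.62 and 2.49 in KO. The lowest 2 values of that ratio were KO1 and KO3, and KO2 lay just above WT1.

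The mean log2 ratio of Il2ra over Il7r was 1.52 ± 0.15 in WT and 1.20 ± 0.27 in KO (SD, n = 3 each), a difference of -0.31 with an exact two-sided permutation p of 0.2. For Il2rb over Il2rg it was 0.45 ± 0.29 and 0.78 ± 0.23, a difference of 0.34 (exact permutation p = 0.3). Over the 6 ratios tested, adjusted exact p-values ran from 0.900 to 1, and 3 libraries against 3 cannot give an unadjusted p under 0.1. Within batch A the log2 difference of KO1 over WT1 was -0.48 for Il2ra over Il7r and -0.06 for Il2rb over Il2rg. Leaving out KO1 changed the group difference to -0.16 for Il2ra over Il7r and 0.47 for Il2rb over Il2rg.

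**Figure D3:**
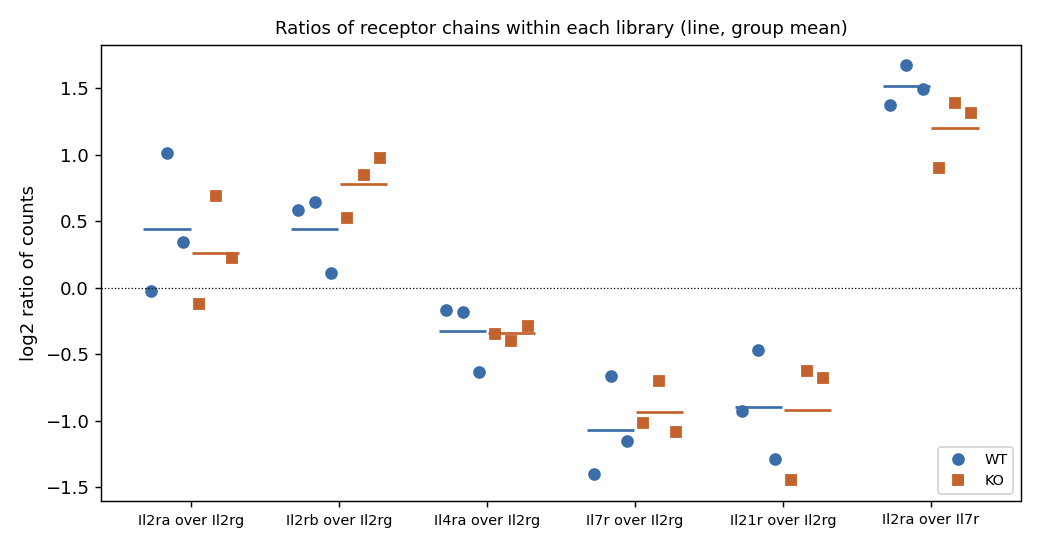
Log2 ratio of the counts of 2 receptor chains within a library (y axis) for 6 ratios (x axis), 1 point for each WT (circle) and KO (square) library, lines at the group means. The groups overlap in all 6 ratios; the means differ most for Il2rb over Il2rg (0.45 in WT, 0.78 in KO) and Il2ra over Il7r (1.52 in WT, 1.20 in KO).

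The chains also differed in which libraries were high or low. After each gene was centred on its own mean, Il2rg and Il4ra were the most alike of the 15 pairs, with a root-mean-square difference in log2 CPM over the 6 libraries of 0.16. Il2rb and Il4ra followed at 0.22 and Il2ra and Il7r at 0.24, while Il2ra and Il2rb, the partner chains of Il2rg in the high-affinity IL-2 receptor, were the least alike at 0.44. Among 7788 genes of at least 10 CPM, the closest to Il2ra were ATP6, a mitochondrially encoded subunit of the ATP synthase, at 0.073 and Coq10b at 0.076. Those closest to Il2rb were Dhrs3 at 0.077 and Vps37b, a subunit of the ESCRT-I sorting complex, at 0.078. Wdr43 at 0.047 and the GTPase Arf6 at 0.066 were closest to Il2rg. Scp2 at 0.060 and the kinesin Kif21b at 0.075 were closest to Il4ra, Ube2b at 0.051 and Tmed8 at 0.057 to Il7r, and Vps37c at 0.061 and Nfic at 0.076 to Il21r. A gene's closest other gene stood at a median of 0.076 over all genes compared, so that with 6 libraries such likeness is common.

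The other chains of this receptor group were scarcer. Il15ra, the chain that presents IL-15, was at 7.07 CPM in WT1, 9.25 in WT2 and 6.98 in WT3, against 31.8 in KO1, 15.3 in KO2 and 12.6 in KO3. Every KO library was above every WT library, with the library labelled KO1 the highest. With a log2 fold change of 1.36 (SE 0.51), Il15ra did not pass (edgeR, adjusted p = 0.488). Leaving out the library labelled KO1 gave 0.84 (edgeR, adjusted p = 0.599). Summed macrophage markers were also highest in that library, at 471 CPM, and their part in the Il15ra level was not tested. Il9r, the chain that binds IL-9, averaged 17.7 ± 12.1 CPM in WT and 34.5 ± 7.43 in KO, and Crlf2, the TSLP-binding chain, at 19.1 ± 6.12 and 19.8 ± 6.81 CPM (SD, n = 3). Il13ra1, which pairs with Il4ra in the IL-13 receptor, was at 0.925 ± 0.818 and 3.98 ± 3.73 CPM. The library labelled KO1 was the highest for it at 8.24 CPM, and leaving it out moved the log2 fold change from 2.07 to 0.95. Of the 4 tested, 0 passed (edgeR). For 1 (Il15ra) the unadjusted p was under 0.05, against 9.37% of all tested genes, and 1 did not overlap, against 17.7%. Their median log2 fold change was 1.16, against -0.04 for all tested genes, with a median within-group SD of log2 CPM of 0.73. Il13ra2 had 0 counts in all libraries, which allows up to 0.0323 CPM over the 6 by a limit of 3 counts.

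Transcripts of the cytokines themselves were scarce or had 0 counts. Il2 had 7, 0 and 196 counts in WT1, WT2 and WT3 and 30, 0 and 4 counts in KO1, KO2 and KO3, so that WT3 held most of them. Il4 averaged 1.96 ± 1.28 CPM in WT and 4.92 ± 2.16 in KO, and Il21 at 1.13 ± 1.24 and 1.83 ± 0.575 CPM (SD, n = 3). Il13, a ligand of the receptor that contains Il4ra, was the most abundant at 13.8 ± 4.33 and 10.5 ± 8.74 CPM, with its lowest level, 1.29 CPM, in the library labelled KO1. Il7 had 0 counts over WT and 11 over KO, Il15 had between 0 and 2 counts in each library, and Il9 and Tslp had 0 in all 6, with the same limit as for Il13ra2. Of the 4 cytokines tested 0 passed (edgeR), and 0 had an unadjusted p under 0.05, against 9.37% of all tested genes.

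Downstream of the receptors, 0 of 21 tested genes of proximal signalling passed by edgeR, 2 had an unadjusted p under 0.05 (9.37% of all tested genes did), and 6 did not overlap between the groups (17.7% of all). Jak1, the kinase bound to the partner chains, was at 604 CPM in WT1, 640.2 in WT2 and 546 in WT3, against 436 in KO1, 400.0 in KO2 and 408 in KO3. It was lower in all 3 KO libraries, with a log2 fold change of -0.52 (SE 0.17, edgeR, adjusted p = 0.460). Stat5a was at 191, 151 and 159 CPM in WT and at 222, 233 and 256 CPM in KO, in the same order, higher in all 3 KO libraries with a log2 fold change of 0.51 (SE 0.19, edgeR, adjusted p = 0.487). Jak3, which binds the common gamma chain, averaged 106 ± 29.0 CPM in WT and 119 ± 31.2 in KO (SD, n = 3), and its groups overlapped. The median log2 fold change of the 21 genes was 0.17.

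**Figure D4:**
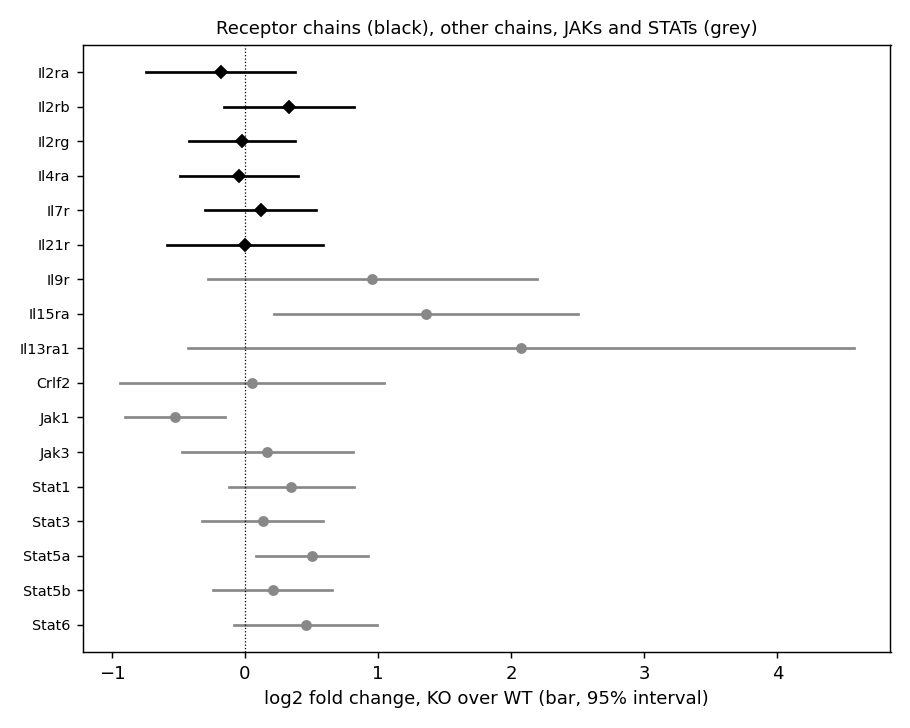
Log2 fold change of KO over WT (x axis) with its 95% interval from the edgeR fit for the 6 receptor chains (black diamonds), and for the other chains, JAKs and STATs (grey circles). The intervals of all 6 chains include 0; those of Il15ra, Jak1 and Stat5a do not, but none passed adjustment over all genes (adjusted p = 0.488, 0.460 and 0.487).

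Among 22 genes known as targets of IL-2 and STAT5, 0 passed (edgeR), 10 were positive, 2 had an unadjusted p under 0.05, close to the 9.37% of all tested genes, and the median log2 fold change was -0.03. Tnfrsf4, which encodes the costimulatory receptor OX40, averaged 289 ± 66.7 CPM in WT and 469 ± 142 in KO. Bcl2l1, which encodes the survival protein BCL-XL, was at 70.5 ± 13.7 and 43.4 ± 13.5 CPM (SD, n = 3). Of 8 genes linked to IL-4 and STAT6, 0 passed, 0 had an unadjusted p under 0.05, and the 2 with the smallest p were the transcriptional repressor Bcl6, at 162 ± 36.9 and 130.3 ± 15.4 CPM, and the chemokine receptor Ccr4, at 762 ± 77.4 and 612 ± 36.9 CPM. Of 23 regulators of Il2ra or Il7r transcription, 0 passed and 7 were positive, where 5948 of all 12557 tested genes were positive. Their median was -0.18, against -0.04 for all tested genes. Of the 23, 1 had an unadjusted p under 0.05 and 5 did not overlap between the groups, against 9.37% and 17.7% of all tested genes. Smad3, a mediator of TGF-beta signals, was at 84.8 ± 20.8 and 128 ± 6.55 CPM, and Rela, an NF-kB subunit, at 86.7 ± 32.4 and 129.9 ± 20.3 CPM (SD, n = 3). Of 14 genes of receptor trafficking and shedding 0 passed, 2 had an unadjusted p under 0.05, against 9.37% of all tested genes, and the median was -0.05. The 2 were Hgs, a subunit of the ESCRT-0 sorting complex, at 4.74 ± 3.27 and 15.2 ± 2.03 CPM, and the ubiquitin ligase Cbl, at 564 ± 102 and 389 ± 49.6 CPM (SD, n = 3).

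Cells other than Treg cells can carry these chains, such as Il2rb in NK and CD8 T cells and Il4ra and Il21r in B cells. Summed over 7 macrophage markers, expression was 164 to 232 CPM in WT and 205 to 471 CPM in KO, with Lyz2 and Csf1r the most abundant. The 6 markers of B and plasma cells summed to 163 to 743 CPM in WT and 233 to 316 CPM in KO, nearly all of it Jchain, followed by Cd79b, while the defining B cell gene Pax5 averaged 0.0189 CPM in WT and 0.199 in KO. The 6 markers of CD8 T and NK cells summed to 4.06 to 6.81 CPM in WT and 1.89 to 3.07 CPM in KO, Klrb1c and Cd8b1 being the most abundant, with 2 of them at 0 in each group. The 7 epithelial markers found summed to 12.7 to 37.2 CPM in WT and 52.9 to 128 CPM in KO, with Clca1 and Fcgbp the most abundant. They did not move together: of the 6 tested, 4 had a positive log2 fold change, while Epcam and Cdh1 were lower in KO. Epcam was at 11.2 ± 6.09 CPM in WT and 6.04 ± 2.38 in KO, and Cdh1 at 8.85 ± 7.71 and 3.45 ± 2.10 CPM (SD, n = 3). Fcgbp, a goblet cell gene, was the 1 of 6 tested that passed (edgeR, adjusted p = 0.0169), rising from 0.0343 ± 0.0593 CPM in WT to 33.8 ± 17.3 in KO (SD, n = 3). That call ended in 7 of 17 alternative fits, among them limma-voom (adjusted p = 0.177) and those without WT1, WT2, WT3 or KO3 (edgeR, adjusted p = 0.227, 0.125, 0.134 and 0.0811). Mast cell markers were at 0 counts for 4 of 4, and the 6 ILC markers, of which Il1rl1 and Areg are also made by colonic Treg cells, summed to 1100.3 to 1262 and 1120.7 to 1584 CPM. The part of these transcripts in the receptor levels was not tested.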

How the data were processed

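In the deposited table, each of 32161 rows paired a symbol and Entrez identifier with the estimated counts of the 6 libraries, which the authors gave as whole numbers, and with their own comparison. The submitters' processing notes name DESeq2 1.34.0, R 4.1.2, Salmon 1.4.0 and fastp 0.20.0 without saying what each did. Per the labels' protocols, cells were sorted into lysis buffer, and RNA was amplified with the Ovation RNASeq System V2 before library preparation, which can lose rare transcripts. The sources used here do not give the genome build, annotation, strandedness or how transcripts were summed to genes. The deposited log2 fold change and its standard error, mean normalized signal, p-value, adjusted p-value and test score are the authors', per the file headers. A second table held 6 columns whose names match no sample, and these were not used.

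Rows with 1 Entrez identifier were summed (71 merged, 32090 genes). filterByExpr (minimum count 10, minimum total 15) kept 12557 genes. The test was the quasi-likelihood test of edgeR 4.0.16 (R 4.3.3) on TMM-scaled counts. Genotype was the single term, and p-values were adjusted over all genes by Benjamini-Hochberg with a threshold of 0.05. The SE is the size of the log2 fold change over the square root of F, and 95% intervals use the fit's degrees of freedom. Log2 CPM values have a prior count of 2. Ratios use counts with a prior count of 2 and exact permutation tests (scipy 1.17.1). Transcript and coding lengths are from GENCODE vM21, matched by symbol for 98.0% of tested genes, and promoters from RefSeq GRCm38.p6. Alternatives used limma 3.58.1 and DESeq2 1.42.0, with 5325 of 18841 adjusted p-values empty in DESeq2. The fitting steps were tested on simulated data. Limits for 0 counts cover counting error only, because the reads come from amplified material. Whether pools shared mice or sort days within a group beyond the batches is not known, so p-values measure the spread between these libraries.

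The receptor genes and gene lists were chosen with earlier results of these data known. The genes named are the 6 receptor genes, checks of the sort, the target and sex, the other chains and cytokines in full, the 2 with the smallest p of each other signalling list (also Jak3, named for its role), the 2 most abundant of each cell-type list, any list gene that passed and the 2 genes most like each receptor gene. Pax5 was added after its values were seen, as a defining gene near 0, and so were Cd79a, Epcam and Cdh1, as markers lower in KO. Same-numbered libraries were not paired by the labels.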

Additional observations from a re-analysis of the deposited data

How the results depend on the processing

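Over 17 alternative fits (other scalings, filters, tools, covariates and left-out libraries) 0 of the 6 receptor genes was called in each. The other named chains, cytokines and signalling genes were called in none of the alternatives that tested them, 16 for Il13ra1, Il2 and Il21, which the filter of 50 counts removed. Fcgbp lost its call in 7 of the 17, with adjusted p up to 0.227. Il2rb and Il7r stayed higher in KO in all of them, with log2 fold changes of 0.17 to 0.48 and 0.027 to 0.21. The number of genes called over the whole table was 3, and it was 9 with no filter, 255 with DESeq2's Wald test, 1 with a term for RNA integrity, 1 with KO2 and KO3 summed, and 1 to 4 with a library left out, 1 in each fit without WT1, WT2, WT3 or KO3. Differences close to 0 changed sign. Il21r was at -0.0013 with DESeq2 size factors, -0.013 with library size alone, -0.0087 with the stricter filter of 50 counts in 3 libraries, -0.047 with a term for sort batch A against the rest and -0.12 with KO2 and KO3 summed. Il2rg was at 0.013 with upper-quartile factors and 0.018 with no filter, and Il2ra at 0.0017 with limma-voom, where Cd4 was at 0.038 and Cd3e at 0.085. Jak3 was at -0.094 and Crlf2 at -0.29 with the RNA integrity number, and Crlf2 at -0.072 with KO2 and KO3 summed. With single libraries left out, log2 fold changes ran from -0.14 to 0.044 for Il2rg, -0.14 to 0.12 for Il4ra, -0.16 to 0.23 for Il21r, -0.22 to 0.27 for Crlf2, -0.049 to 0.36 for Jak3, -4.90 to 0.68 for Il2, -1.09 to 0.12 for Il13, -0.13 to 0.032 for Cd4 and -0.18 to 0.042 for Cd3e. The sign of Il2 turned without WT3, and that of Il13 without KO1. Log2 ratio differences ran from -0.41 to 0.10 for Il2ra over Il2rg, -0.17 to 0.065 for Il4ra over Il2rg, -0.030 to 0.34 for Il7r over Il2rg and -0.22 to 0.24 for Il21r over Il2rg. Per coding length, the log2 difference of Il2rg over Il2rb was -0.068, of Il2rb over Il2ra -0.75 and of Il4ra over Il7r -0.15, since the lengths differ. Per longest transcript, Il4ra over Il7r ran from -0.016 to 0.17 with a library left out. The cause of the other changes was not tested.

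The replicate block left 3 genes called and turned Il21r to -0.037. Deviations of same-numbered libraries correlated across genes at 0.0093, 0.049 and 0.026, all under 0.1. Of the same-numbered libraries only WT1 and KO1 also share a sort batch, so the numbers do not pair the samples in general, and the block changed no call of a receptor gene. The 3 libraries a group limit what can be seen: the 95% intervals allow folds of 0.597 to 1.76 over the 6 genes.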
